A study of Homo sapiens with 21 samples.

Results

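ZR-75-1, an established oestrogen receptor-positive (ER+) breast cancer cell line of luminal type, was exposed for 6 hours to 50 nM THZ1 or to the solvent DMSO, and its RNA was measured on Affymetrix PrimeView 3' expression arrays. The comparison rests on 4 of the series' 21 arrays, chosen by the cell line and treatment in their labels, with 2 arrays at 50 nM THZ1 and 2 with DMSO. The rest of the series is ZR-75-1 at 250 nM, and T47D (a second ER+ line), MDA-MB-468 and BT-549 (triple-negative lines) with the same doses. All groups grew in RPMI-1640 with serum, and the labels name no genetic change in any group. The source field of the ZR-75-1 samples, like that of the T47D samples, names MDA-MB-468, against their titles and their cell line field. The arrays of a group, called THZ1-1 and THZ1-2 (50 nM) and DMSO-1 and DMSO-2 here, are not said in the labels to come from separate cultures. The spread that p-values rest on may therefore be a technical one. All arrays of a group are of 1 established line grown in culture.

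THZ1 binds covalently to CDK7, which is part of the initiation factor TFIIH, and at higher doses also reaches the related kinases CDK12 and CDK13. CDK7 phosphorylates the tail of RNA polymerase II as it leaves a promoter, and within the CDK-activating kinase it also activates the kinases of the cell cycle. Short-lived transcripts are the first to fall when such kinases are blocked, since their level follows new synthesis closely. Luminal cells are known by the oestrogen receptor ESR1, by the transcription factors GATA3 and FOXA1, and by the keratins of simple epithelium.

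The markers were those of a luminal line. All 10 luminal markers measured lay above array background on each array, with a summed intensity of 74240 and 72020 at 50 nM, against 70860 and 77600 with DMSO. ESR1 had an intensity of 501.2 and 391.8 at 50 nM and of 448.2 and 435 with DMSO. The basal and mesenchymal markers KRT5, KRT14, EGFR, VIM and CDH2 summed to 248 and 243.2 at 50 nM and to 254.3 and 244.7 with DMSO, with each of the 5 above array background (24.95 to 28.35) but none over 74.29 on any of these arrays. Of 9 immune and stromal markers, 5 lay above background on each array, with sums of 289.8 and 358.4 at 50 nM against 342.7 and 312 with DMSO. The leukocyte marker PTPRC reached at most 17.17. The 75th percentile of intensity was 205.02 and 199.35 at 50 nM and 206.96 and 200.35 with DMSO. Replicate arrays correlated at r = 0.9917 (50 nM) and 0.9909 (DMSO) on the log2 scale across genes, which are not independent replicates, and 15 and 19 of 12644 genes differed 2-fold between the 2 arrays of a group.

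A change below is a difference in mean log2 intensity, 50 nM THZ1 minus DMSO, with the standard error of limma, a linear model fitted to 12644 genes. Its spread was estimated from 18 arrays, namely all those of ZR-75-1, T47D and MDA-MB-468, and not from the 4 arrays alone. A gene was called lower or higher at a Benjamini-Hochberg adjusted p under 0.05. limma called 718 genes lower (5.68% of those tested) and 353 higher (2.79%). At least 2-fold changes were rare, with 25 genes lower (0.198%) and 7 higher (0.0554%). The median change was -0.48 over the lower calls, 0.37 over the higher calls and -0.003 over all genes. In all 1071 called genes both 50 nM arrays lay beyond both DMSO arrays, as they did in 6001 of the 12644 genes. At an unadjusted p under 0.05, 1605 genes were lower and 1146 higher. A fit of the 4 arrays alone called 289 genes lower and 78 higher. Arrays scaled to the control transcripts lys, phe, thr and dap moved the median of all genes to 0.098 and the split to 244 lower and 414 higher. With lys, TagJ and TagO these values were 0.095, 268 and 431. Leaving out DMSO-1, DMSO-2 or THZ1-2 left 388, 413 and 361 lower genes, and without THZ1-2 there were 40 genes at least 2-fold lower. Higher genes came to 216, 175, 135 and 192 when DMSO-1, DMSO-2, THZ1-1 and THZ1-2 were left out in turn. A bulk array cannot tell fewer cells of a type from less RNA per cell.

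**Figure D1:**
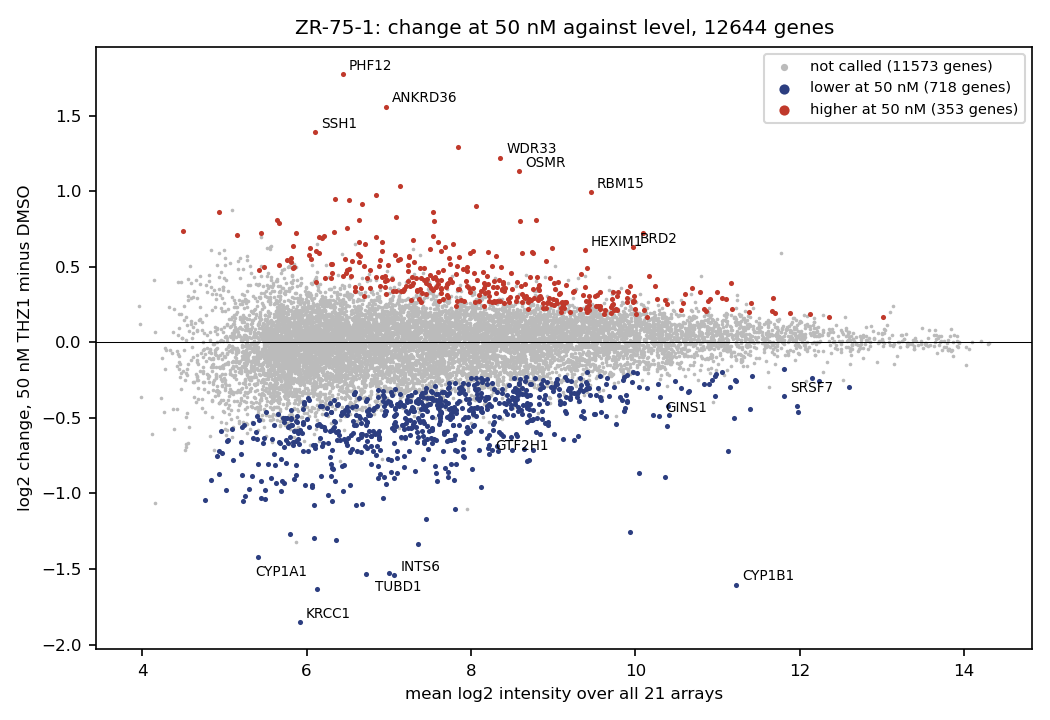
Change at 50 nM THZ1 against DMSO in ZR-75-1 (y axis, log2) by mean log2 intensity over all 21 arrays (x axis), with 1 point per gene. The 718 genes called lower and the 353 called higher lie at all but the highest levels, and CYP1B1 stands apart as a strongly expressed gene with a change of -1.60.

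The aryl hydrocarbon receptor AHR is a ligand-activated transcription factor that pairs with ARNT and binds DNA at the core letters GCGTG. Its best known targets are the xenobiotic-metabolising enzyme genes CYP1A1 and CYP1B1, which lie among the 3 most lowered genes in ZR-75-1. CYP1B1 had an intensity of 1890 and 1742 at 50 nM THZ1, against 5423 and 5606 with DMSO. CYP1A1 had 47.87 and 52.82 at 50 nM, against 154.3 and 157.4 with DMSO. In neither gene did the groups come near each other, and the fall was 3.04-fold for CYP1B1 (log2 change -1.60 ± 0.06, SE, limma adjusted p = 2.05e-10) and 3.1-fold for CYP1A1 (-1.63 ± 0.13, limma adjusted p = 3.37e-06). All 5 probe sets of CYP1B1 and both of CYP1A1 were lower. Such counts are of the probe sets that passed the filter on low values, while a mean over all probe sets of a gene also takes in the dim ones. SLC7A5, an amino acid transporter gene reported as an AHR target, had 1173 and 1017 at 50 nM against 1547 and 1489 with DMSO (-0.47 ± 0.09, limma adjusted p = 0.00296, 1 of 2 probe sets). These 3 genes were the only calls among 11 measured AHR pathway genes (27.3%, beside 5.68% lower of all genes). The median change over the 11 was -0.008. Where arrays were scaled to lys, phe, thr and dap, or probe sets averaged, SLC7A5 was not called. The promoters of CYP1A1 and SLC7A5 are shown because both genes fell and the letters GCGTG could be looked for in each. They run from 250 bases before to 50 bases after the start of the gene in RefSeq on GRCh38.p14, 5′ to 3′ on the strand of the gene, and the capitals mark GCGTG or, read on the other strand, CACGC.
CYP1A1, chr15:74725479-74725778, minus strand: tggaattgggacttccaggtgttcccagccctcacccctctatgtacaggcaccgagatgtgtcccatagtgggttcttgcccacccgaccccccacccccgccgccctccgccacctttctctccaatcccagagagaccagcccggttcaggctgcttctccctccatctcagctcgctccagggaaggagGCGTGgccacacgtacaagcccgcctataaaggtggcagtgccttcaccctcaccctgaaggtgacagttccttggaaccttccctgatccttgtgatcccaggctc
SLC7A5, chr16:87869458-87869757, minus strand: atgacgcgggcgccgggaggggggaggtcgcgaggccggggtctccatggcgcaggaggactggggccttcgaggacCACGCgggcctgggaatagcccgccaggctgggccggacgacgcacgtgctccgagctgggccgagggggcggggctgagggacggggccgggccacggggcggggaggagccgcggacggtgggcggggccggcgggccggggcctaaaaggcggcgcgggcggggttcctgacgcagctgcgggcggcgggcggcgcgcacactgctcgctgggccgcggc
Each window holds the 5 letters once, CYP1A1 on its own strand and SLC7A5 on the other one. Of 35116 RefSeq promoters of the same length, 36.5% hold them on either strand. A match is a description of the sequence and not a binding site.

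The largest fall was that of KRCC1, which encodes a lysine-rich coiled-coil protein. It had 55.39 and 55.28 at 50 nM and 200.2 and 198.4 with DMSO, a 3.6-fold difference (-1.85 ± 0.11, limma adjusted p = 8.92e-08). LMCD1, a LIM domain protein gene, had 202.9 and 201.6 at 50 nM against 635.5 and 534.6 with DMSO (-1.53 ± 0.12, 3 of 4 probe sets lower). FAM135A had 32.28 and 24.5 against 79.62 and 70.92 (-1.42 ± 0.18), and only 1 of its 2 arrays at 50 nM lay above background. KAT14, the acetyltransferase subunit of the ATAC chromatin complex, was the least even of these genes, with 125 and 72.69 at 50 nM and 226.6 and 245.7 with DMSO (-1.31 ± 0.20). The zinc finger gene ZNF117 fell by 1.26 ± 0.20. NBPF1 also fell by 1.26 ± 0.16 (472 and 754.9 at 50 nM, 1651 and 1231 with DMSO), but it belongs to a family of near-identical copies that its probes may not separate. The groups did not overlap in any of these genes, as in all 1071 called genes. Of the 25 genes that fell at least 2-fold, 3 had no 50 nM array above background, so their folds are lower bounds and are not given.

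Among raised genes PHF12, a PHD finger protein of SIN3 repressor complexes, stood first, with 139.6 and 154.2 at 50 nM and 47.1 and 39.03 with DMSO. That is a 3.42-fold difference (1.77 ± 0.13, limma adjusted p = 1.3e-06), seen in 1 of its 2 probe sets. ANKRD36, from a family of ankyrin repeat genes with close copies, had 267.8 and 254.8 against 102 and 76.72 (1.56 ± 0.15, 1 of 2 probe sets). SSH1, a phosphatase that activates the actin-severing protein cofilin, had 163.9 and 160.7 against 68.78 and 55.38 (1.40 ± 0.13). Its probe sets disagreed, with 2 of 4 higher and 1 lower. OSMR, the oncostatin M receptor gene, had 694.7 and 704.9 against 319.9 and 316.6 (1.14 ± 0.06), in 1 of 4 probe sets. DMXL1, a regulator of the vacuolar proton pump, rose by 1.04 ± 0.10 with 1 probe set higher and 1 lower of 3. RBM15, an RNA-binding adaptor of the m6A methyltransferase, rose in 4 of 4 probe sets, with 1508 and 1318 at 50 nM against 681.8 and 734 with DMSO (0.99 ± 0.11, limma adjusted p = 6.19e-05). The deubiquitinase gene USP45 (0.98 ± 0.17) and the cystathionine gamma-lyase gene CTH (0.95 ± 0.15) had 1 probe set each that passed the filter. For 7 of the 10 most raised genes at least 1 tested probe set was not called higher. With the mean over all probe sets of a gene, SNAPC3 (0.28), WDR33 (-0.13), OSMR (-0.01) and USP45 (0.001) lost their calls. Over the whole array 72 of 7681 genes with at least 2 probe sets had called probe sets in both directions.

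**Figure D2:**
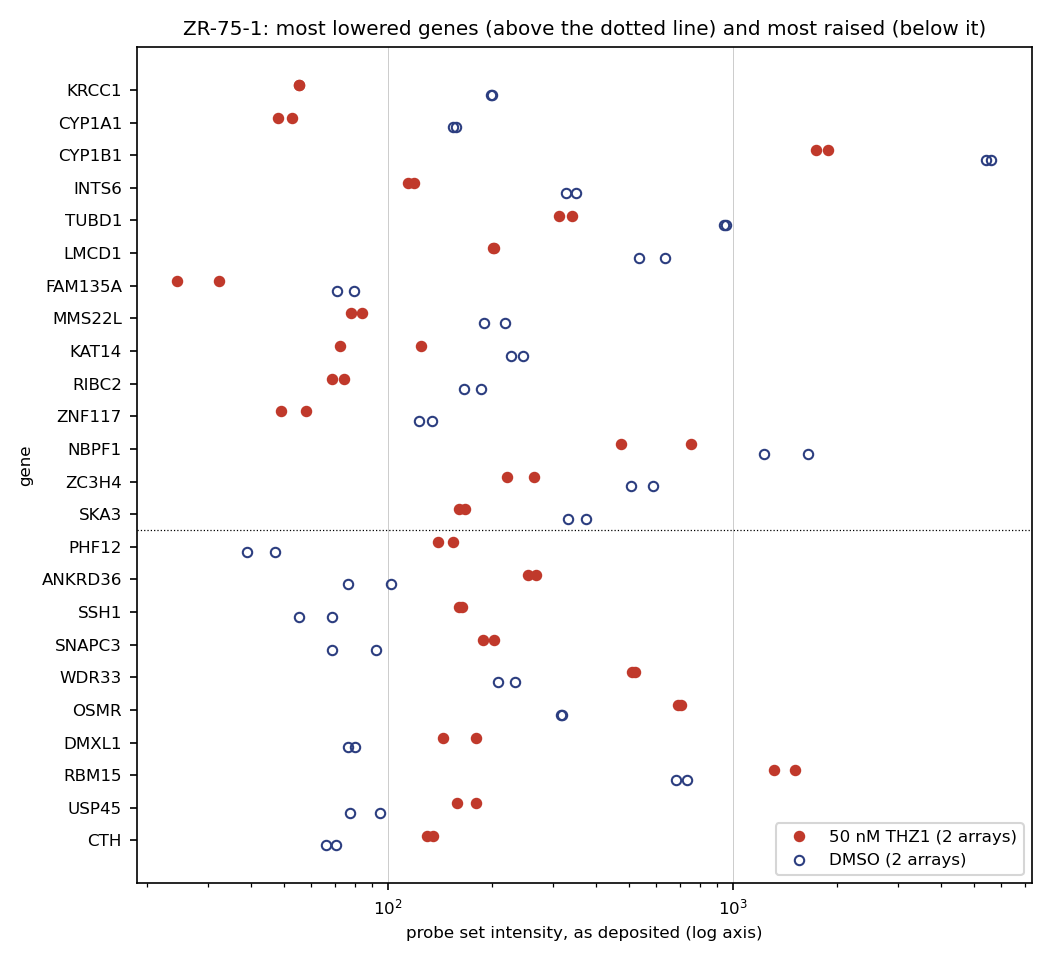
Intensity on each array (x axis, log scale) of the 14 most lowered genes, above the dotted line, and the 10 most raised, below it, in ZR-75-1. Filled points are the 2 arrays at 50 nM THZ1 and open points the 2 DMSO arrays. The 24 genes were chosen among calls whose groups do not overlap.

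Of 26 measured TFIIH and transcription kinase genes 1 was lower (3.85%) and 3 higher (11.5%), beside 5.68% and 2.79% of all genes, with a median change of 0.07. GTF2H1, which encodes the p62 core subunit of TFIIH, had 409.3 and 385.8 at 50 nM against 644.2 and 681 with DMSO (-0.74 ± 0.08, limma adjusted p = 6.19e-05), and 7 of its 8 probe sets were lower. HEXIM1, the inhibitor of the elongation kinase P-TEFb, had 1287 and 1086 at 50 nM against 821.3 and 727.4 with DMSO (0.61 ± 0.10, limma adjusted p = 0.00181), with 5 of 5 probe sets higher. CDK12, an elongation kinase, had 349.4 and 329.5 against 247.8 and 231.7 (0.50 ± 0.10, limma adjusted p = 0.00396), but in 1 of 5 probe sets, and was not called with the mean over probe sets (0.22). CDK7 itself had 546.6 and 553.7 at 50 nM and 533.9 and 531 with DMSO (0.05 ± 0.07, limma adjusted p = 0.787). CDK13 was uneven, with 183.6 and 106.9 at 50 nM and 148.5 and 124.5 with DMSO (0.04 ± 0.19, limma adjusted p = 0.94). Neither CDK7 nor CDK13 was thus called at the level of its RNA, and the groups overlapped for CDK13.

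Of 39 RNA polymerase II and Mediator genes 1 was lower (2.56%) and 2 higher (5.13%), beside 5.68% and 2.79% of all genes. POLR2A, the largest subunit of the polymerase, had 503.3 and 437.4 at 50 nM against 284.5 and 338.8 with DMSO (0.60 ± 0.09, limma adjusted p = 0.000832), in 1 of 3 probe sets. Of 26 genes of initiation factors and of the snRNA promoter complex 2 were lower and 2 higher (7.69% each). SNAPC3, a subunit of that complex, had 202.7 and 188.4 at 50 nM against 92.57 and 68.91 with DMSO (1.29 ± 0.11), in 1 of 4 probe sets. GTF2E1, the alpha subunit of TFIIE, fell by 0.50 ± 0.12 (limma adjusted p = 0.016), a call that ended without DMSO-1 (-0.47), DMSO-2 (-0.54) or THZ1-2 (-0.43), under either control scaling (-0.40 and -0.41) or with the mean over probe sets (-0.31). Without DMSO-1, DMSO-2 or THZ1-2 no gene of this list was lower, and 1 was without THZ1-1. Without DMSO-1, THZ1-1 or THZ1-2 the list had 1 higher gene. The polymerase and Mediator list had 1 higher gene without DMSO-1 or THZ1-1, and none lower without DMSO-2 or THZ1-1. Of 28 elongation factor genes none was lower and 1 was higher, and without DMSO-2, THZ1-1 or THZ1-2 none was.

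Integrator cleaves nascent RNA near promoters, and other complexes cut and terminate it at the 3' end. Of 37 measured genes of this kind 7 were lower (18.9%) and 3 higher (8.11%), beside 5.68% and 2.79% of all genes, with a median change of -0.13. The mean over probe sets gave 4 lower and 1 higher. INTS6, an Integrator subunit, had 118.8 and 114 at 50 nM against 350 and 327.9 with DMSO (-1.54 ± 0.09, limma adjusted p = 8.5e-08), with 4 of 6 probe sets lower and 1 higher. ZC3H4, which terminates unproductive transcription, had 221.5 and 264.3 against 587.2 and 504.7 (-1.17 ± 0.12, limma adjusted p = 3.34e-05, 1 of 2 probe sets). INTS7 fell in 3 of 3 probe sets by 0.59 ± 0.08. WDR33, which reads the polyadenylation signal, had 518.7 and 511.3 at 50 nM against 208.5 and 233 with DMSO (1.22 ± 0.07), while 2 of its other probe sets were lower. PCF11, a termination factor, was not called at 50 nM (-0.42 ± 0.14, limma adjusted p = 0.0747). Without DMSO-2 or THZ1-2 the list had 4 lower genes, and 5 without DMSO-1 or THZ1-1. Of 31 SR protein, hnRNP and splicing kinase genes 4 were lower and 4 higher, SRSF7 falling by 0.36 ± 0.05 and the kinase CLK3 rising by 0.46 ± 0.09. SRSF7 was not called under either control scaling (-0.26 in both), nor CLK3 with the mean over probe sets (0.28). Without DMSO-1, DMSO-2 or THZ1-2 there was 1 lower gene on that list, and arrays scaled to either set of control transcripts left 0. Higher genes there numbered 2, 2, 1 and 1 without DMSO-1, DMSO-2, THZ1-1 and THZ1-2. Of 36 mRNA decay and poly(A) tail genes 2 were lower and 2 higher, and in the fits without DMSO-1, DMSO-2, THZ1-1 and THZ1-2 these were 1 and 0, 1 and 1, 2 and 0, and 0 and 1.

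DNA repair by homologous recombination uses the MRE11 complex and the BLM helicase among others, and the Fanconi proteins join it at stalled forks. Of 32 measured genes of this kind 13 were lower (40.6%) and 1 higher (3.12%), beside 5.68% and 2.79% of all genes, with a median change of -0.24. NABP1, which binds single-stranded DNA, had 80.68 and 81.96 at 50 nM against 174.5 and 142.5 with DMSO (-0.96 ± 0.16, limma adjusted p = 0.00198, 3 of 3 probe sets). BLM had 153 and 175.3 against 288.3 and 272.1 (-0.77 ± 0.17, limma adjusted p = 0.00876). RAD51C, a gene of strand exchange in recombination, had 3716 and 3498 against 4428 and 4749 (-0.35 ± 0.06, limma adjusted p = 0.00209). RAD50, of the MRE11 complex, had 384.3 and 381.9 against 468.5 and 501.2 (-0.34 ± 0.07, limma adjusted p = 0.00539). The groups did not overlap in any of the 4 genes, as in every called gene. The count of this list leaned on single arrays, with 5 lower genes without DMSO-1, 5 without DMSO-2, 10 without THZ1-1 and 4 without THZ1-2, and with no higher gene without DMSO-1 or THZ1-1. Centring each array on its median left 8, and scaling to either set of control transcripts left 2, with the list median still below 0 (-0.14). It also leaned on the spread taken from the other lines. A fit of the 4 arrays alone called 2 genes of the list lower, and a fit of the 6 ZR-75-1 arrays 4. BLM lost its call without DMSO-1 (-0.73) or THZ1-1 (-0.68), and RAD50 without DMSO-2 (-0.29). RAD51C (-0.25) and RAD50 (-0.24) were not called under either control scaling, nor RAD50 with each array centred (-0.32). Neither gene was called in the fit of the 4 arrays alone, nor RAD50 in that of the 6 ZR-75-1 arrays.

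Replication copies the genome from licensed origins. Of 43 measured replication and fork protection genes 4 were lower (9.30%) and none higher, beside 5.68% and 2.79% of all genes. Their median change was -0.02. MMS22L, which protects stalled forks, had 78.09 and 84.02 at 50 nM against 218.7 and 190.2 with DMSO (-1.33 ± 0.11, limma adjusted p = 2.91e-06). GINS1, a subunit of the replicative helicase, had 1569 and 1564 against 2172 and 2216 (-0.49 ± 0.05, limma adjusted p = 3.34e-05). ORC3, of the origin recognition complex, fell by 0.59 ± 0.10 in 6 of 6 probe sets. TOPBP1, which activates the checkpoint kinase ATR, fell by 0.46 ± 0.08 in both of its probe sets. In each of these genes the 50 nM arrays lay below both DMSO arrays, as in every gene called lower.

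Of 34 mitosis genes 1 was lower and 1 higher (2.94% each), beside 5.68% and 2.79% of all genes. MKI67, the proliferation marker Ki-67, had 861.5 and 898.7 at 50 nM against 584.7 and 666.2 with DMSO (0.50 ± 0.07, limma adjusted p = 0.000625), in 1 of 6 probe sets, and its mean over all probe sets was at -0.001 and not called. SKA3, a kinetochore gene outside that list, had 167.7 and 160.7 against 332 and 375.6 (-1.10 ± 0.12). Of 33 E2F, RB and G1 cyclin genes 3 were lower (9.09%) and 1 higher (3.03%). The repressor gene E2F5 had 133.8 and 130.8 at 50 nM against 254.4 and 259.9 with DMSO (-0.96 ± 0.09, limma adjusted p = 1.29e-05). E2F8, also a repressor, had 291 and 335 against 605 and 427.7 (-0.70 ± 0.19, limma adjusted p = 0.0345). Its call ended without DMSO-1 (-0.45), THZ1-1 (-0.60) or THZ1-2 (-0.81). The list had 1 lower gene without DMSO-1 or THZ1-2, and no higher gene without DMSO-1, DMSO-2 or THZ1-1. The mitosis list had no lower gene without DMSO-1, DMSO-2 or THZ1-2.

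The 65 measured genes of centrosomes, cilia and tubulins had a median of -0.10, and of 0.00 with arrays scaled to either set of control transcripts. Of these, 6 were lower (9.23%) and none higher, beside 5.68% and 2.79% of all genes. Without DMSO-1 there were 4, and without each other array 5. TUBD1, the delta tubulin of centrioles, had 341.4 and 312.6 at 50 nM against 951.2 and 938.8 with DMSO, a 2.89-fold difference (-1.53 ± 0.10, limma adjusted p = 3.44e-07). The intraflagellar transport gene IFT88 fell by 0.60 ± 0.09 and the centrosomal gene NIN by 0.53 ± 0.09, in 1 of 2 and 1 of 5 probe sets, and neither was called with the mean over probe sets (-0.08 for both). RIBC2, a protein of ciliary microtubules, had 74.4 and 69 at 50 nM against 185.7 and 165.8 with DMSO (-1.29 ± 0.12).

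Of 31 measured luminal and oestrogen receptor genes 4 were lower (12.9%) and none higher, beside 5.68% and 2.79% of all genes, with a median of 0.005. Centring each array left 1 lower gene, and the scalings to control transcripts gave 1 lower with 2 or 1 higher. GATA3 had 4763 and 4188 at 50 nM and 4201 and 5289 with DMSO (-0.08 ± 0.09, limma adjusted p = 0.679), and FOXA1 had 3176 and 3498 at 50 nM and 3759 and 3505 with DMSO (-0.12 ± 0.08, limma adjusted p = 0.42). ESR1 was at 0.01 ± 0.15 (limma adjusted p = 0.989). For GATA3 and ESR1 the groups overlapped. MLPH, which links melanosomes to myosin and marks luminal tumours, was the clearest call, with 2045 and 2113 at 50 nM against 2918 and 3180 with DMSO (-0.55 ± 0.06, limma adjusted p = 5.29e-05, 4 of 7 probe sets). IRS1, the insulin receptor substrate, had 586.6 and 650.9 against 826.1 and 720.6 (-0.32 ± 0.09, limma adjusted p = 0.0436). Its call ended without DMSO-1 (-0.22), THZ1-1 (-0.25) or THZ1-2 (-0.40), with centring (-0.30), under either control scaling (-0.22 in both) and with the mean over probe sets (-0.30). CCND1, the cyclin of the G1 kinases, had 1984 and 1835 against 2282 and 2249 (-0.25 ± 0.06, limma adjusted p = 0.014) in 1 of 4 probe sets. It was not called with the mean over probe sets (-0.04), with centring (-0.23) or under either control scaling (-0.15 in both), and lost its call without DMSO-1 (-0.24), DMSO-2 (-0.26) or THZ1-2 (-0.19). The list had 1 lower gene without DMSO-1 or THZ1-2 and 2 without DMSO-2 or THZ1-1. None of 15 basal and mesenchymal genes was called, nor any of 11 immune and stromal genes.

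MYC, a growth regulator, had 924 and 873.9 at 50 nM and 968.4 and 1044 with DMSO (-0.16 ± 0.08, limma adjusted p = 0.281). MCL1, an apoptosis inhibitor with a short-lived transcript, had 2368 and 2182 at 50 nM and 1928 and 1999 with DMSO (0.21 ± 0.09, limma adjusted p = 0.17). In both genes the groups did not overlap, and neither passed the test. Of 34 immediate early genes 3 were lower (8.82%) and none higher, beside 5.68% and 2.79% of all genes, with a median of 0.00. The control scalings gave 1 lower with none or 1 higher. IER3 had 3818 and 3691 at 50 nM against 4871 and 5484 with DMSO (-0.46 ± 0.06, limma adjusted p = 0.000334). The transcription factor genes EGR1 (-0.57 ± 0.13, 1 of 6 probe sets) and JUN (-0.46 ± 0.13, 3 of 4) were called, but neither call held in any of the 4 fits without 1 array, where EGR1 lay between -0.62 and -0.52 and JUN between -0.56 and -0.36, nor under either control scaling (-0.47 for EGR1 and -0.36 for JUN). With the mean over probe sets EGR1 was at -0.16 and not called. The list then had 1 lower gene in each fit. Of 20 MAPK feedback genes 3 were lower (15%), among them the phosphatase gene DUSP16 (-0.52 ± 0.09) and PHLDA1 (-0.59 ± 0.11, 1 of 4 probe sets). PHLDA1 was not called with the mean over probe sets (-0.26) or in fits of the 4 or 6 ZR-75-1 arrays alone, nor DUSP16 with lys, phe, thr and dap (-0.42), which left 1 lower gene on the list.

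The p53 pathway, apoptosis and the stress responses were looked at next, beside the 5.68% lower and 2.79% higher of all genes. GDF15, a cytokine of the stress response, had 284.8 and 274.6 at 50 nM against 487.3 and 468.1 with DMSO (-0.77 ± 0.10, limma adjusted p = 0.000226, 3 of 4 probe sets), and was the 1 lower gene among 23 of the p53 pathway (4.35%). The 3 higher genes of that list (13%) were led by the RNA-binding protein gene ZMAT3 with 94.59 and 80.8 against 58.94 and 57.87 (0.58 ± 0.10). Without DMSO-1, THZ1-1 or THZ1-2 the higher ones numbered 1, and 2 without DMSO-2. Of 30 apoptosis regulators 3 were lower (10%) and 1 higher (3.33%), and the scalings to control transcripts gave 2 lower with 2 or 3 higher. The death receptor adaptor FADD had 565.2 and 559.5 at 50 nM against 833.1 and 877.4 with DMSO (-0.60 ± 0.09, limma adjusted p = 0.000882, 1 of 2 probe sets). CASP8AP2, a caspase-8 partner, had 219.3 and 322.3 against 488.6 and 479.3 (-0.86 ± 0.17), and without THZ1-1 it was not called (-0.59). Of 29 heat shock and unfolded protein genes 3 were lower and 3 higher (10.3% each), and the control scalings gave 1 lower with 2 or 3 higher. ATF4, the transcription factor of the integrated stress response, had 3177 and 3426 against 4331 and 4511 (-0.42 ± 0.07, limma adjusted p = 0.00105). Its target DDIT3 fell by 0.53 ± 0.12, a call that ended without DMSO-1 (-0.45), THZ1-1 (-0.51) or THZ1-2 (-0.55), or under either control scaling (-0.43 in both). In the fits without DMSO-1, DMSO-2, THZ1-1 and THZ1-2 the stress list had 1, 2, 3 and 1 lower genes and 0, 3, 0 and 0 higher ones, and the apoptosis list 2, 3, 1 and 2 lower genes and 1, 0, 0 and 0 higher ones.

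Of 30 WNT, NOTCH and BMP genes 3 were lower (10%) and 2 higher (6.67%), beside 5.68% and 2.79% of all genes. The control scalings gave none lower with 3 or 4 higher. The BMP receptor gene BMPR2 fell by 0.44 ± 0.08, a call that ended under either control scaling (-0.34 in both), with the mean over probe sets (-0.21) and in fits of the 4 or 6 ZR-75-1 arrays alone. Of 23 interferon and NF-kB genes none was lower and 2 were higher (8.7%), IRF7, a transcription factor of the interferon response, by 0.47 ± 0.08. Among 41 chromatin genes 2 were lower (4.88%) and 4 higher (9.76%), and the acetyl-lysine readers of the BET family went opposite ways. BRD2 had 1839 and 1732 at 50 nM against 1126 and 1176 with DMSO (0.63 ± 0.06, limma adjusted p = 1.29e-05, 2 of 2 probe sets). BRD3 had 228.2 and 266.6 against 356.3 and 336.9 (-0.49 ± 0.10, limma adjusted p = 0.00522, 1 of 4 probe sets), and lost its call without THZ1-1 (-0.38) or with the mean over probe sets (-0.15). Without DMSO-1, DMSO-2, THZ1-1 and THZ1-2 the chromatin list had 1, 2, 1 and 1 lower genes and 3, 2, 2 and 3 higher ones, and the WNT, NOTCH and BMP list 2, 1, 1 and 2 lower genes and 1 higher gene in each. The interferon list had 1 higher gene without DMSO-2, THZ1-1 or THZ1-2, and 1 lower gene without DMSO-1.

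Of 23 listed long noncoding RNA genes 8 were measured, most of them hosts of small nucleolar RNAs. Of these 8, 5 were lower (62.5%) and none higher, beside 5.68% and 2.79% of all genes, with a median of -0.31. SNHG12 had 520.1 and 574.5 at 50 nM against 783.8 and 879.6 with DMSO (-0.60 ± 0.08, limma adjusted p = 0.000231). EPB41L4A-AS1 had 320.2 and 300.8 against 437.3 and 468.6 (-0.54 ± 0.08, limma adjusted p = 0.000652). Without DMSO-1, DMSO-2, THZ1-1 and THZ1-2 the list had 2, 3, 4 and 2 lower genes, with centring 3, and under either control scaling 2 lower and 1 higher. Of 381 zinc finger genes named ZNF 29 were lower (7.61%) and 5 higher (1.31%), beside 5.68% and 2.79% of all genes. Their median was -0.09, and 0.01 with arrays scaled to either set of control transcripts. The clearest were ZNF606 (-0.94 ± 0.12), ZNF594 (-1.05 ± 0.15), ZNF189 (-0.62 ± 0.10, 3 of 3 probe sets) and ZNF362 (-0.61 ± 0.10). Without DMSO-1, DMSO-2 or THZ1-2 there were 17, 19 and 16 lower genes. The higher ones numbered 2, 2 and 3 without DMSO-2, THZ1-1 and THZ1-2.

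None of 70 cytosolic ribosomal protein genes, 13 housekeeping genes or 21 cholesterol and fatty acid synthesis genes was called, with medians of -0.005, 0.06 and 0.03. Of 74 mitochondrial ribosomal protein genes 2 were lower (2.7%, beside 5.68% of all genes). Of 76 oxidative phosphorylation genes, 33 proteasome genes and 30 replication-dependent histone genes 1 each was higher (1.32%, 3.03% and 3.33%, beside 2.79%). Those 3 single calls were lost without DMSO-1 or THZ1-2, the first 2 also without DMSO-2 or THZ1-1, and without THZ1-2 no mitochondrial ribosomal protein gene was lower and 1 was higher, while without DMSO-1 there was 1 lower. Without DMSO-2, 1 cholesterol and fatty acid synthesis gene was higher. A call of none at this number of arrays does not show that the levels were equal.

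**Figure D3:**
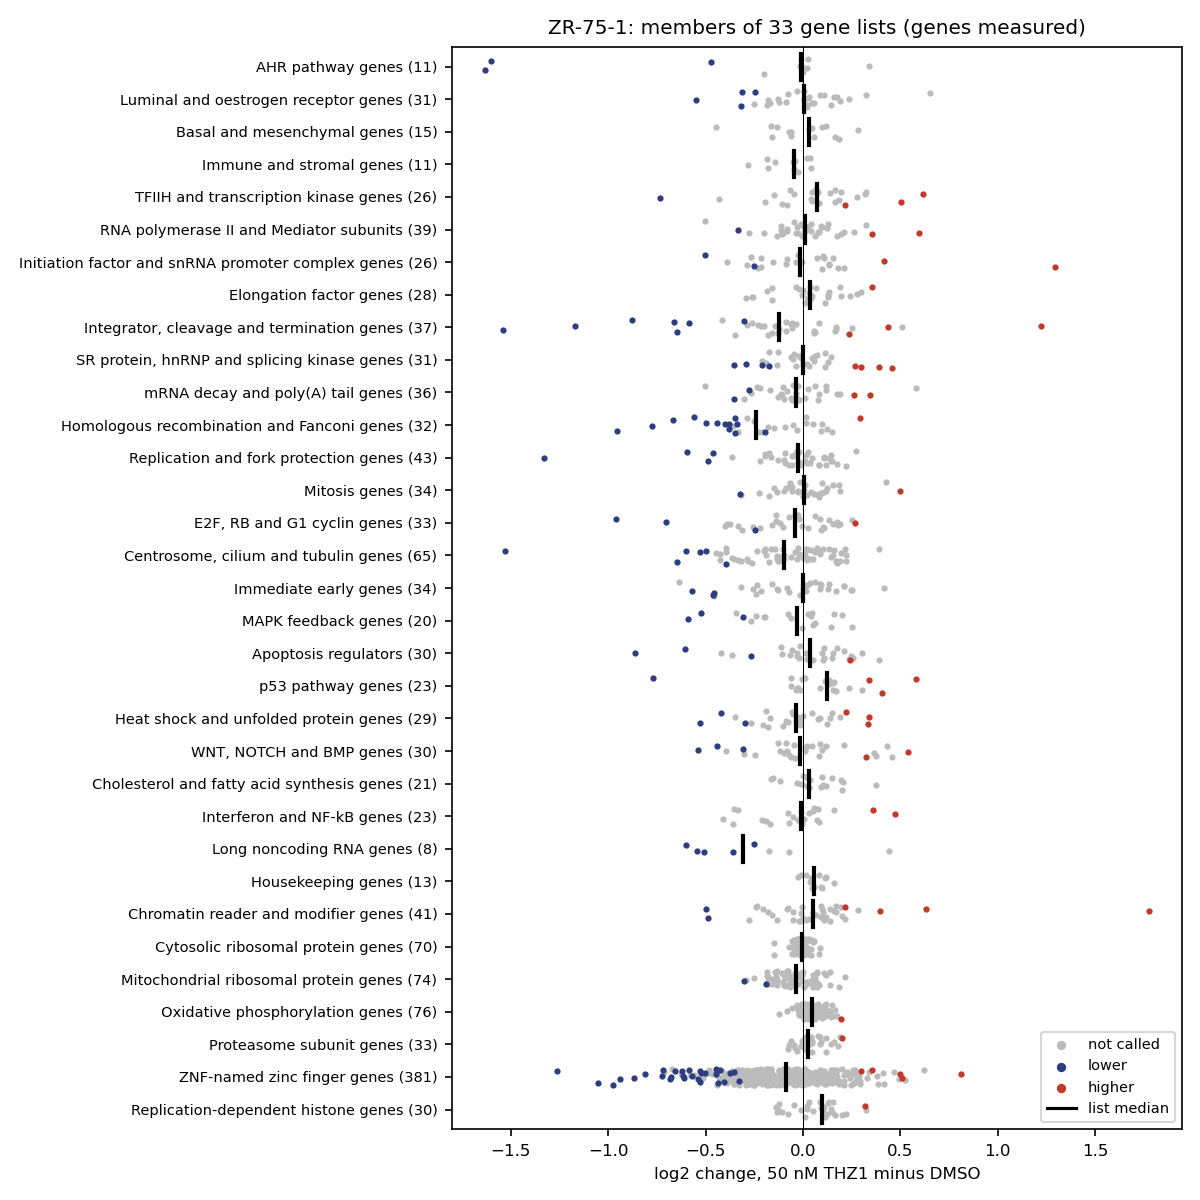
Log2 change at 50 nM THZ1 against DMSO in ZR-75-1 (x axis) of each measured member of 33 gene lists (1 row each, number measured in brackets), with called genes in colour and the median as a bar. The homologous recombination and Fanconi list (13 of 32 lower) and the long noncoding RNAs (5 of 8 lower) have medians below -0.2, and the cytosolic ribosomal protein genes lie close to 0.

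Calls were not spread evenly over expression levels. With the genes divided into 4 equal classes by mean level, each of 3161 genes, 3.54%, 6.74%, 8.42% and 4.02% were lower and 0.791%, 2.56%, 4.27% and 3.54% higher, going from the lowest class to the highest. In 4 such classes by the span of the gene in RefSeq, 5.48%, 3.51%, 7.12% and 6.62% were lower, going from the shortest class (up to 11.2 kb) to the longest (above 70.5 kb). The higher calls made up 2.12%, 2.85%, 3.32% and 2.85% of these classes. The median span was 38.1 kb for the lower calls, 31.6 kb for the higher calls and 28.5 kb for all genes.

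The 250 nM arrays share the DMSO arrays with this comparison, so values at both doses are given side by side without a test of their likeness. Genes called lower at 50 nM had a median change of -0.48 at 50 nM and of -1.20 at 250 nM, and genes called higher a median of 0.37 at 50 nM and of 0.05 at 250 nM, where the median of all genes was -0.18. KRCC1 changed by -1.85 at 50 nM and -2.64 at 250 nM, CYP1B1 by -1.60 and -2.72, and INTS6 by -1.54 and -2.93. ZC3H4 had the wider gap, with -1.17 and -4.02. By their DMSO levels and these changes, KRCC1 and ZC3H4 lay near array background (28.20 and 31.44) at 250 nM. Larger falls could not be measured for them, so the gaps also depend on the DMSO level. Some single genes not called at 50 nM had larger changes at 250 nM. MYC was at -2.29 ± 0.08, FOXA1 at -2.33 ± 0.08, GATA3 at -1.64 ± 0.09 and MCL1 at -1.80 ± 0.09 (SE). The cytosolic ribosomal protein genes, none of them called at 50 nM, had a median of 0.26 at 250 nM. Several raised genes had the opposite sign at the higher dose, with 0.99 at 50 nM and -0.66 at 250 nM for RBM15, 0.61 and -1.50 for HEXIM1, 0.63 and -0.51 for BRD2, 0.50 and -0.76 for CDK12, and 1.22 and -0.26 for WDR33. PHF12 and OSMR were above DMSO at both doses, with 1.77 and 0.58 for PHF12 and 1.14 and 0.95 for OSMR.

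**Figure D4:**
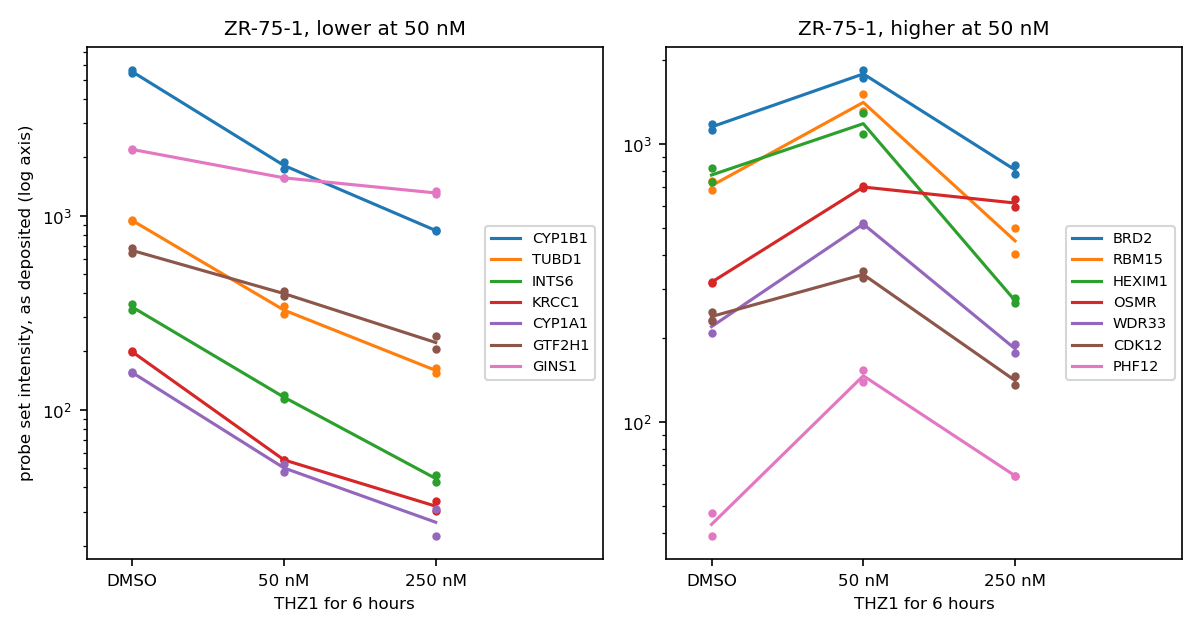
Intensity in ZR-75-1 (y axis, log scale) with DMSO, 50 nM and 250 nM THZ1 (x axis), points being the 2 arrays of a group and lines joining their means. The 7 genes on the left, lower at 50 nM, had their lowest level at 250 nM, and of the 7 on the right, higher at 50 nM, BRD2, RBM15, HEXIM1, WDR33 and CDK12 lay below DMSO at 250 nM.

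The other lines share no arrays with ZR-75-1. Of the 718 genes lower in ZR-75-1, 633 (88.2%) had a negative 50 nM change in T47D, MDA-MB-468 and BT-549 alike, as had 3855 (30.5%) of all genes. Of the 353 higher ones 223 (63.2%) had a positive change in all 3, as had 2015 (15.9%) of all genes. All 25 genes that fell at least 2-fold, and all 7 that rose at least 2-fold, had the same sign in each of these lines. The median change of the lower calls was -0.39 in T47D and -0.50 in MDA-MB-468, against -0.03 and -0.06 over all genes.

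The difference between the 50 nM changes of 2 lines was then tested in the same limma fit. Against T47D, 11 genes changed less positively or more negatively in ZR-75-1 (0.087%) and 16 the other way (0.127%). Against MDA-MB-468 these were 19 (0.15%) and 214 (1.69%). The split moved with the scaling of the arrays. Against T47D it was 23 and 18 after quantile normalization, 8 and 2916 with lys, phe, thr and dap, and 9 and 3108 with lys, TagJ and TagO, which moved the median difference of all genes to 0.356 and 0.349 (0.034 without such scaling). Against MDA-MB-468 it was 28 and 75 with each array centred on its median, 40 and 165 after quantile normalization, and 8 and 1399 with lys, TagJ and TagO. CYP1A1 differed most in both, with -1.63 in ZR-75-1 against -3.56 in T47D (limma adjusted p of the difference = 0.00036) and -4.12 in MDA-MB-468 (limma adjusted p of the difference = 1.2e-05), while the single BT-549 pair gave -0.02. The DMSO level of CYP1A1 in ZR-75-1 lay too near array background for falls of that size to be measured there. Its 50 nM arrays lay above background, but the size of these differences is limited by that level. The termination factor PCF11 was at -0.42 in ZR-75-1, against -1.74 in T47D and -2.04 in MDA-MB-468. PURB, which binds single-stranded nucleic acid, was at -0.20 in ZR-75-1 against -1.38 in T47D, and RTL10 at 0.05 against -1.05. Against MDA-MB-468, E2F8 was at -0.70 in ZR-75-1 and -2.18 in MDA-MB-468, and NABP1 at -0.96 and -2.41. In each of these genes the change was less negative in ZR-75-1 than in the line set beside it, or, for RTL10, slightly positive. The centrosomal gene CEP19 and the zinc finger genes ZNF518B and ZNF175 also passed the test, with signal near background in ZR-75-1. There CEP19 had no 50 nM array above background and its change was not called (limma adjusted p = 0.191), against a change of -1.80 in T47D. ZNF518B, at -1.44 in T47D, and ZNF175, at -1.08 in MDA-MB-468, had no ZR-75-1 array of either group above background, so a fall could not be measured. With the mean over probe sets the T47D differences of PURB (0.44), RTL10 (0.52) and IRS1 (0.57) and the MDA-MB-468 differences of PURB (0.32) and E2F8 (0.81) were not called.

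A smaller group had the more negative or less positive change in ZR-75-1. EGR1 was at -0.57 in ZR-75-1 and 0.72 in T47D (limma adjusted p of the difference = 0.0066), and the endothelin gene EDN1 at -0.61 and 0.36 (limma adjusted p of the difference = 0.00036). MAP7D3, a microtubule-binding protein, was at -0.21 and 0.96, VEPH1 at 0.14 and 1.14, and RND1, which encodes a small GTPase, at 0.02 and 0.95. NBPF4, of a family of close copies, was at -0.65 and 0.47, and its change in ZR-75-1 was called only with all 4 arrays (-0.68 to -0.61 without 1 of them). Against MDA-MB-468, LMCD1 was at -1.53 in ZR-75-1 and -0.43 in MDA-MB-468, GDF15 at -0.77 and 0.08, and the haem oxygenase gene HMOX2 at 0.11 and 1.30. HSPB8, a small heat shock protein, was at -0.32 and 0.64, EP400P1, a pseudogene, at 0.19 and 1.06, and MYEOV had nearly the same intensity in both ZR-75-1 groups (45.58 and 45.66 at 50 nM, 45.74 and 45.72 with DMSO) and a change of 0.94 in MDA-MB-468. With the mean over probe sets the T47D differences of EGR1 (-0.60), MAP7D3 (-0.39), VEPH1 (-0.15), NBPF4 (-0.83) and MLPH (-0.36) were not called. That of MLPH also ended with centring (-0.61) and under either control scaling (-0.27 in both), and the MDA-MB-468 difference of EP400P1 under either control scaling (-0.79 and -0.65). Without 1 ZR-75-1 array the counts moved. Against T47D 7 genes were lower without DMSO-1, and the higher ones were 8 without DMSO-2 and 10 without THZ1-1. Against MDA-MB-468 8 were lower without THZ1-1, and 112 and 82 were higher without DMSO-2 and without THZ1-1. The differences of NBPF4 (-1.15 to -1.08) and HSPB8 (-1.05 to -0.87) were not called in any of these 4 fits. That of RND1 was not called without DMSO-1 (-0.80) or THZ1-1 (-0.77), and that of EP400P1 without DMSO-1 (-0.73) or THZ1-2 (-0.75). That of CEP19 was not called without DMSO-2 (1.21), THZ1-1 (1.45) or THZ1-2 (1.30). That of E2F8 ended without DMSO-2 (1.23), and, without THZ1-1, those of ZNF518B from T47D (1.40) and MYEOV (-0.94) ended. GDF15 also differed from T47D, where it was at 0.12, a call that ended without DMSO-1 or THZ1-2 (-0.87 in both fits).

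**Figure D5:**
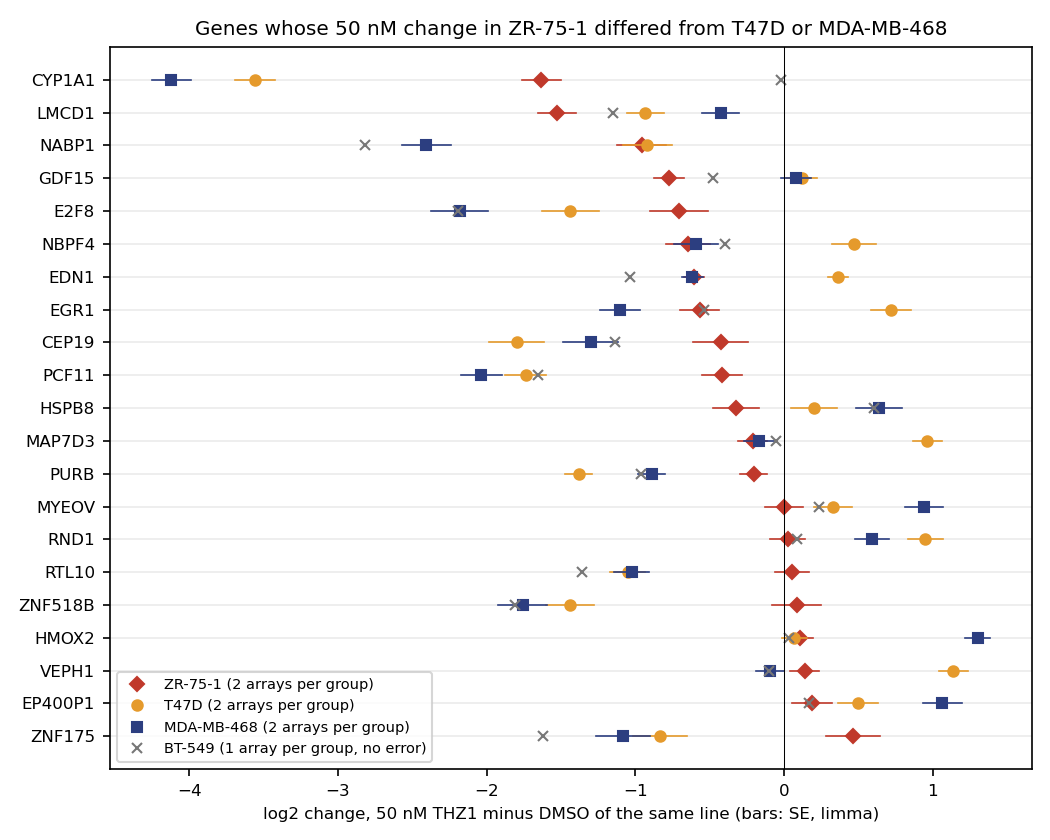
Log2 change at 50 nM THZ1 against DMSO of the same line (x axis) for genes whose change in ZR-75-1 differed from that in T47D or MDA-MB-468 (limma), with bars of 1 SE for the lines with 2 arrays a group. CYP1A1 lies at -1.63 in ZR-75-1, right of T47D and MDA-MB-468, and EGR1, EDN1 and NBPF4 lie left of 0 in ZR-75-1 and right of it in T47D. The ZR-75-1 points of ZNF518B and ZNF175 come from arrays not above background, and that of CEP19 from 50 nM arrays not above it. Falls of CYP1A1 as large as in T47D and MDA-MB-468 could not be measured in ZR-75-1, given its DMSO level.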

How the data were processed

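RNA of 21 cell samples was hybridised to PrimeView arrays, 1 array per sample. Per the submitters' processing notes the authors used MAS5, and the deposited values are intensities of 49395 probe sets on a linear scale. The sources used here do not give the scaling between arrays. Spike-in RNA followed the cell number, per the labels' protocols, but a fixed mass of RNA was then amplified from oligo(dT) primers, so values are relative to that mass, and the spike-in was not used here.

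Intensities were floored at 1 and put on the log2 scale. Of the probe sets 44994 had 1 gene symbol, 1832 several and 2569 no entry in the platform annotation. Each of 18132 genes was represented by its brightest probe set on average over the arrays, and 12644 genes with at least 1 group mean at or above the median value (intensity 57.37) were tested. A model of 9 group means was fitted to 18 arrays with limma 3.58.1 (R 4.3.3, eBayes with trend, residual df 9, prior df 6.18). BT-549, with 1 array per group, gave values without a test. A probe set was above background where it exceeded the mean log2 of 23 background probe sets of its array. The number of arrays limits the precision.

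Whether replicate numbers pair the arrays is not known, and the main fit used no pairing. Deviations of the same number correlated at -0.22 between the 50 nM and DMSO groups of ZR-75-1, and at 0.02 to 0.29 in the other groups of the fit. With 2 arrays per group and genes that are not independent, these values do not settle the pairing. Named genes were the 14 most lowered and 10 most raised calls with groups that did not overlap, 9 fixed genes, up to 4 called members of each of 33 lists, and up to 6 genes per direction of each difference between lines. Where a list had fewer than 2 calls, its members with the smallest p could be named. The members and lists were chosen with earlier results of these data known. Alternatives covered scaling, filters, the log offset, the arrays fitted, the choice of probe set, a replicate block and leaving out each ZR-75-1 array. The fit was tested on simulated data.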

Additional observations from a re-analysis of the deposited data

Results flagged for a closer look

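The 38 differences listed here are 50 nM changes in ZR-75-1 minus 50 nM changes in another line (log2), each with a limma adjusted p under 0.05 for the difference itself. They stand out because the same treatment gave different changes in 2 lines.

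Against T47D, ZR-75-1 had the less negative change, or one of opposite sign, for CYP1A1 (difference 1.93), PCF11 (1.32), PURB (1.18), RTL10 (1.11) and IRS1 (0.94). It had the more negative or less positive change for EGR1 (-1.29), MAP7D3 (-1.17), NBPF4 (-1.12), VEPH1 (-1.0), EDN1 (-0.97), RND1 (-0.93), GDF15 (-0.89) and MLPH (-0.59). With the mean over all probe sets MLPH (-0.36), IRS1 (0.57), EGR1 (-0.60), MAP7D3 (-0.39), NBPF4 (-0.83), VEPH1 (-0.15), PURB (0.44) and RTL10 (0.52) lost the call, and MLPH also lost it with centring (-0.61) and under either scaling to control transcripts (-0.27 in both). ZNF518B (1.52) had no ZR-75-1 array above background and CEP19 (1.37) no 50 nM array, so the size of a fall in ZR-75-1 could not be measured for either. The DMSO level of CYP1A1 in ZR-75-1 lay too near background for a fall as large as in T47D to be measured.

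Against MDA-MB-468, ZR-75-1 had the less negative change, or one of opposite sign, for CYP1A1 (2.49), PCF11 (1.62), E2F8 (1.48), NABP1 (1.45), ZC3H4 (1.27), RTL10 (1.08), HEXIM1 (0.99), FADD (0.98), IRS1 (0.89), PURB (0.68), PHLDA1 (0.68), ZNF189 (0.59), INTS6 (0.56) and MYC (0.56). It had the more negative or less positive change for HMOX2 (-1.19), LMCD1 (-1.10), HSPB8 (-0.96), MYEOV (-0.94), EP400P1 (-0.88), GDF15 (-0.85) and BRD2 (-0.49). The differences of INTS6 (0.51 to 0.61) and PHLDA1 (0.62 to 0.75) were not called in any fit without 1 ZR-75-1 array. MYC lost the call without DMSO-1 (0.50) or THZ1-1 (0.52), PURB without DMSO-2 (0.58) or THZ1-1 (0.68), and ZNF189 without DMSO-1 (0.55), DMSO-2 (0.63) or THZ1-1 (0.52). Centring ended the calls of INTS6 (0.44), MYC (0.44), PHLDA1 (0.56), ZNF189 (0.47) and PURB (0.57). The mean over probe sets ended those of INTS6 (0.11), E2F8 (0.81), ZNF189 (0.46) and PURB (0.32). The control scalings ended those of BRD2 (-0.40 and -0.26) and EP400P1 (-0.79 and -0.65). ZNF518B (1.84) and ZNF175 (1.55) had no ZR-75-1 array above background, so a fall there could not be measured. For CYP1A1 a fall as large as in MDA-MB-468 could not be measured in ZR-75-1, given its DMSO level.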

How the results depend on the processing

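Of 71 called genes named in the text, 43 were called under each of the 18 alternatives that kept them. A gene that an alternative filtered out was not counted as lost there. Without at least 1 array 12 lost the call, and 3 changed sign under some alternative. With arrays scaled to lys, phe, thr and dap, or to lys, TagJ and TagO, 244 and 268 genes were lower, 14 and 14 at least 2-fold lower and 13 and 13 at least 2-fold higher. The same scalings moved the median of the difference from T47D to 0.356 and 0.349 and gave 2916 and 3108 genes less negative in ZR-75-1. In this section less negative stands for a called positive difference and more negative for a called negative one, whatever the sign of each change. They gave 8 and 8 genes more negative than in MDA-MB-468, and the second gave 1399 less negative. The 4 arrays alone gave 289 lower and 78 higher genes, and the 6 ZR-75-1 arrays 339 and 121. At least 2-fold lower were 16 genes with the filter at the 75th percentile, 14 with 16 added before the log2, and 12 (with 1 at least 2-fold higher) with the mean over probe sets. Against T47D, 23 genes were more negative after quantile normalization and 17 with the stricter filter, and 25 less negative with 16 added. Against MDA-MB-468, 40 were more negative after quantile normalization, 10 without a filter, 33 with 16 added and 31 with the mean over probe sets. There 75 were less negative with each array centred on its median and 322 with 16 added. The cause of these shifts was not tested.

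Without 1 array, lower genes numbered 361 to 489, higher genes 135 to 216, genes at least 2-fold lower 23 to 40 and at least 2-fold higher 8 to 10. The more negative and less negative genes numbered 7 to 11 and 8 to 19 against T47D, and 8 to 16 and 82 to 164 against MDA-MB-468. With a replicate block, whose pairing is not known to be right, 710 genes were lower and 350 higher, and 7 rather than 11 were more negative than in T47D. The crossed pairing, chosen after seeing the data, gave 689 and 323.

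Some named genes changed sign. With the mean over probe sets WDR33 was at -0.13, OSMR -0.01, MCL1 -0.03, MKI67 -0.001, VEPH1 -0.10, RND1 -0.15 and MYEOV 0.08. MYEOV was at 0.02 with centring, 0.03 with quantile normalization, and 0.10 and 0.09 under the control scalings, where GATA3 was at 0.02 and 0.02. Without DMSO-2, CDK13 was at -0.08, ESR1 -0.02, GATA3 0.09, RND1 -0.10 and RTL10 -0.15. Without THZ1-1, CDK13 was at -0.35, ESR1 -0.17 and ZNF518B -0.04, and without THZ1-2, GATA3 was at 0.01, RND1 -0.13 and RTL10 -0.01. Without DMSO-1 ZNF518B was at -0.01. The other end of the range without 1 array was 0.43 for CDK13, 0.18 for ESR1, -0.24 for GATA3, 0.18 for RND1, 0.21 for ZNF518B and 0.26 for RTL10. The cause was not tested. The 4- and 6-array fits give no difference between lines. Signal near background limits what can be seen of weakly expressed genes.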
